A study of Mus musculus with 13 samples.

Results

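The genes described here encode the cytosolic translation initiation factors (eIF1 to eIF6) and elongation factors (eEF1 and eEF2) with the subunits, kinases, repressors and modifying enzymes that carry the same symbols. They were chosen by symbol alone, as every row of the count table whose symbol starts with Eif1 to Eif6, Eef1 or Eef2. Of 70 such rows, 1 named as a pseudogene (Eif1-ps3) was left out. The remaining 69 genes (of 26720 in the table) all passed the filter on low counts, as did 24068 genes in all. Eif2c5 entered by its symbol only. Eif2c is an older symbol for Argonaute genes, which act in RNA silencing.

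RNA was measured as read counts per gene in 13 libraries of regulatory T (Treg) cells, the Foxp3-expressing CD4 T cells that restrain immune responses, sorted from mouse spleen through a Foxp3-driven YFP reporter. The 6 deleted libraries carry the labels Foxp3YFPCre/+Stk3∆/∆Stk4∆/∆ and genotype Het, and the 7 control libraries carry Foxp3YFPCre and genotype WT. Mice were aged around 4 to 5 weeks. Both groups hold the Foxp3-linked Cre and YFP allele. Deletion depends on that Cre and is limited to cells that express, or once expressed, Foxp3. The labels write the allele with /+ in the deleted group only, so its copies per mouse, and traits of the mice that go with them, may differ between the groups. Such differences could not be told apart from the deletion here. The comparison asks what Stk3 and Stk4, the genes of the Hippo pathway kinases MST2 and MST1, contribute to the Treg transcriptome. Replicates are separate samples by their labels, with the mouse behind each not stated. The p-values therefore reflect only how these samples vary, which may be technical.

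Translation starts when eIF2 brings the initiator tRNA to the small ribosomal subunit. The eIF4 factors load that subunit at the mRNA cap, eIF3 scaffolds the complex, and eIF1, eIF1A and eIF5 help to select the start codon. eEF1A then delivers aminoacyl-tRNAs, and eEF2 moves the ribosome along. Messages for many of these factors belong to the 5′ terminal oligopyrimidine (5′TOP) class, whose translation depends on mTORC1. In Treg cells, as in other T cells, protein synthesis rises with activation.

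Several measures of the libraries differed between the groups. Total counts per library ranged from 2671660 to 4569655 in the deleted group and from 3705511 to 8323919 in the control group (two-sided exact permutation test, p = 0.00466). Counts on olfactory and vomeronasal receptor genes, known for their use in sensory neurons, made up 0.761 to 1.89% of the deleted libraries and 0.371 to 1.07% of the control libraries (two-sided exact permutation test, p = 0.00699). Summed CPM (counts scaled to 1000000 per library after TMM scaling) of 8 B cell markers was 166 to 245 in deleted and 399 to 1200 in control libraries, where Ighm and Cd74 were lower and Ms4a1 was higher in the deleted group. The 8 Treg and CD4 T cell markers summed to 974 to 1960 CPM against 1450 to 5580 CPM, 6 of the 8 being lower, and Foxp3 itself was not called (log2 fold change -0.30, edgeR quasi-likelihood adjusted p = 0.463). Whole-gene levels did not separate the groups for Stk3, at 26.8 to 44.2 CPM against 24.8 to 47.9 CPM, or for Stk4, at 57.9 to 394 CPM against 136 to 291 CPM. These counts do not show the deletion, and "deleted" and "control" below stand for libraries so labelled. In bulk RNA, fewer cells of a type and less RNA per cell cannot be told apart.

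Initiation and elongation factor genes were lower in the deleted libraries. Of the 69 genes, 26 fell (37.7%) and 0 rose (0.0%) at an adjusted p under 0.05 in edgeR's quasi-likelihood test with Benjamini-Hochberg adjustment over all genes, and 43 were not called. Over all 24068 genes tested, 8.52% were lower and 1.66% were higher. At an unadjusted p under 0.05, 39 of the factor genes passed. The median log2 fold change of the 69 genes was -0.64, against 0.06 over all genes, and 60 of the 69 values were negative. Levels of the called genes were close to 1 log2 unit lower, with fold changes between -1.33 (Eef1b2) and -0.81 (Eif4e). The factor genes together held 0.833 ± 0.0992% of counts in deleted libraries (SD, n = 6) and 1.14 ± 0.211% in control libraries (SD, n = 7). In the authors' deposited table, 24 of the factor genes were lower and 0 higher at a mean false discovery rate under 0.05, and 7.47% of all its genes were lower. All 24 are among the 26 called here, but both rest on the same libraries, so the overlap is no independent check.

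**Figure D1:**
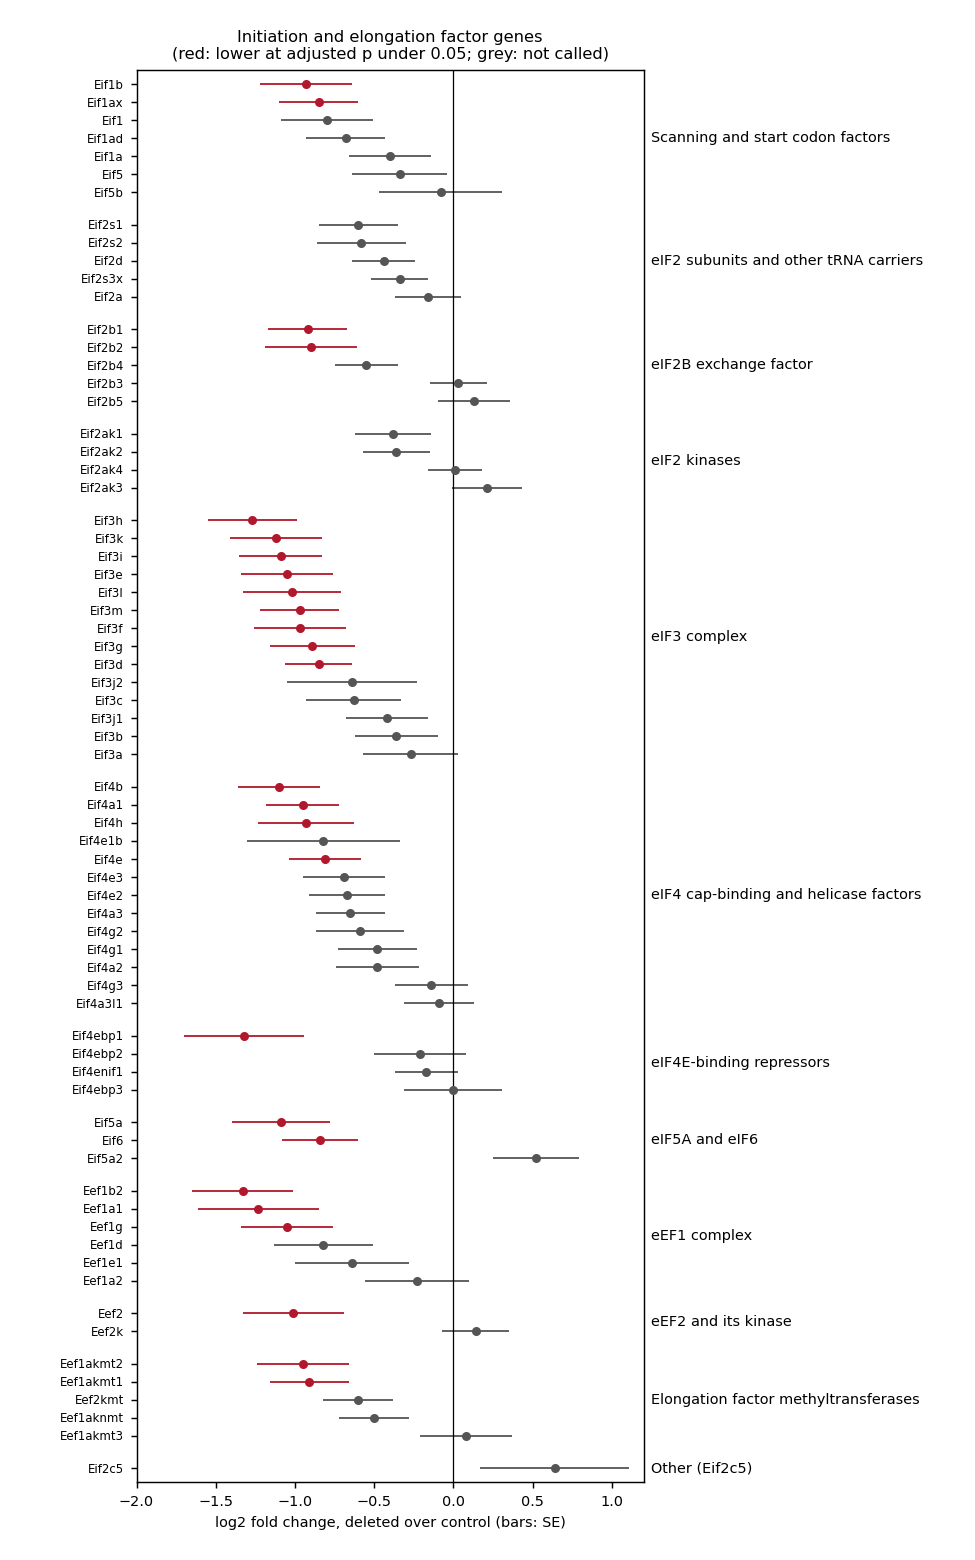
Log2 fold change (deleted over control, horizontal axis) of each of the 69 genes, with its SE as a bar and the genes grouped by role. Red points mark the 26 genes lower at an adjusted p under 0.05, and 60 of the 69 points lie left of 0.

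The share of called genes depended on the level of expression, and the factor genes are mostly well expressed. Among the 5204 genes of at least 50 mean CPM, 23.8% were lower, and 22 of the 47 factor genes in that range were (46.8%). Their median log2 fold change was -0.80, against -0.38 for all genes of that range. Between 50 and 100 mean CPM, 19.3% of all genes and 7 of 20 factor genes were lower. Between 100 and 200 mean CPM, the shares were 29.4% of all genes and 10 of 17 factor genes. At 200 mean CPM or more, 43.1% of all genes and 5 of 10 factor genes were lower, which is near the background. Below 50 mean CPM, 4.29% of all genes and 4 of 22 factor genes were lower. Counts by role group below are to be read against these shares.

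Other fits gave other counts. Upper quartile scaling called 13 factor genes lower (5.02% of all genes), scaling by expressed genes 9 (2.9%), and a fit on expressed genes alone 14 of 47 (15.6%). DESeq2 size factors gave 23 (7.7%), the DESeq2 test 28 (10.3%) and limma-voom 33 (12.2%). With the replicate number as a block (12 libraries), edgeR called 1 factor gene lower (3.09% of all genes). None was higher in any of these fits.

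The count of called genes also moved with single libraries and with the receptor share. With 1 library left out, the share of all genes called lower moved as well and is given in brackets. The count was 7 (4.26%) without deleted replicate 5, 9 (4.45%) without deleted replicate 7, 11 (4.73%) without deleted replicate 3 and 15 (5.59%) without deleted replicate 2. It was 8 (4.68%) without control replicate 5, 11 (4.79%) without control replicate 4 and 16 (6.0%) without control replicate 6. Without deleted replicates 4 and 1 in turn it was 20 (6.89%) and 29 (10.4%), and without control replicates 7, 3, 1 and 2 in turn it was 20 (7.35%), 23 (7.83%), 30 (10.6%) and 35 (13.6%). Eef1b2, Eif3h, Eif3i, Eif3m, Eif4a1 and Eif4b were called in all 13 of these fits, while Eef1a1 and Eef2 were called in 3. With the receptor share of each library as a covariate, 0 of 69 factor genes were called by edgeR's quasi-likelihood test, 3 passed an unadjusted p under 0.05, and 0.233% of all genes were lower. There the median log2 fold change of the 26 genes was -0.20, and 22 of the 26 values were negative. Among the 5 deleted and 4 control libraries of receptor share between 0.7 and 1.4%, edgeR's test called 0 factor genes and passed 10 at an unadjusted p under 0.05. There all 26 values were negative, with a median of -0.50, and 0.418% of all genes were lower.

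**Figure D2:**
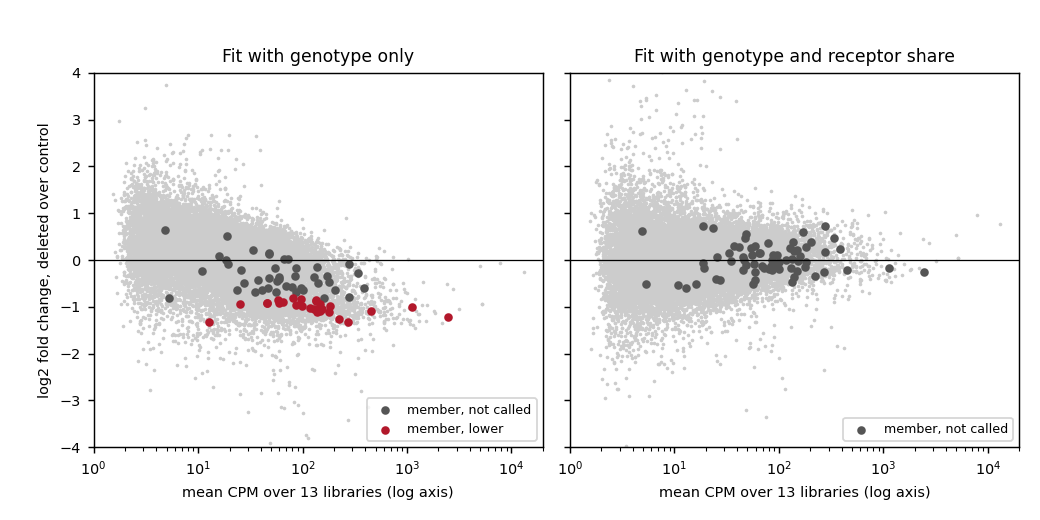
Log2 fold change (vertical axis) against mean CPM over the 13 libraries (log horizontal axis) for all genes (light grey), factor genes not called (dark grey) and factor genes lower at an adjusted p under 0.05 (red), one panel per fit. In the fit over groups alone the 26 red points lie below 0, and none is red once receptor share enters as a covariate.

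Levels were also set against receptor share within each group, for 3 genes chosen after their values were seen. The p-values below do not account for that choice, and their adjustment covers only 6 relations. Gene levels and receptor share come from the same library counts, so they are not independent measures. Among the 7 control libraries, Eef1a1 CPM fell as receptor share rose, with Pearson's r = -0.96 (exact permutation p = 0.000397, adjusted p = 0.00238 over 6 relations) and Spearman's rho = -1 (exact permutation p = 0.000397, the smallest that this n allows). Leaving out the 2 libraries farthest from the median share gave r = -0.93. Among the 6 deleted libraries, r was -0.73 (exact permutation p = 0.144, adjusted p = 0.173) and rho -0.71 (exact permutation p = 0.136, adjusted p = 0.262), neither past the threshold, and r without the 2 farthest was -0.83. In control libraries Eif3h gave r = -0.96 (exact permutation p = 0.000794, adjusted p = 0.00238) and rho = -0.96 (exact permutation p = 0.00278, adjusted p = 0.00834). In deleted libraries Eif3h gave r = -0.54 (exact permutation p = 0.228) and rho = -0.66 (exact permutation p = 0.175). Without the 2 farthest libraries r was -0.93 in control and -0.95 in deleted libraries. Eif2ak4, which was not called, gave r = 0.71 in control (exact permutation p = 0.0881) and 0.76 in deleted libraries (exact permutation p = 0.106), with rho of 0.50 (exact permutation p = 0.267) and 0.54 (exact permutation p = 0.297). Without the 2 farthest libraries these r were 0.73 and -0.29, so the latter rests on those libraries.

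The highest and lowest libraries were often the same ones. Among controls, 46 of the 69 genes were highest in control replicate 5 and 38 were lowest in control replicate 2. Among deleted libraries, 37 were lowest in deleted replicate 7, while the highest was deleted replicate 1 for 28 genes, replicate 4 for 15 and replicate 2 for 13. Only Eif3d had every deleted library below every control library, 1 of 69 genes (1.45%) against 1.44% of all genes tested.

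**Figure D3:**
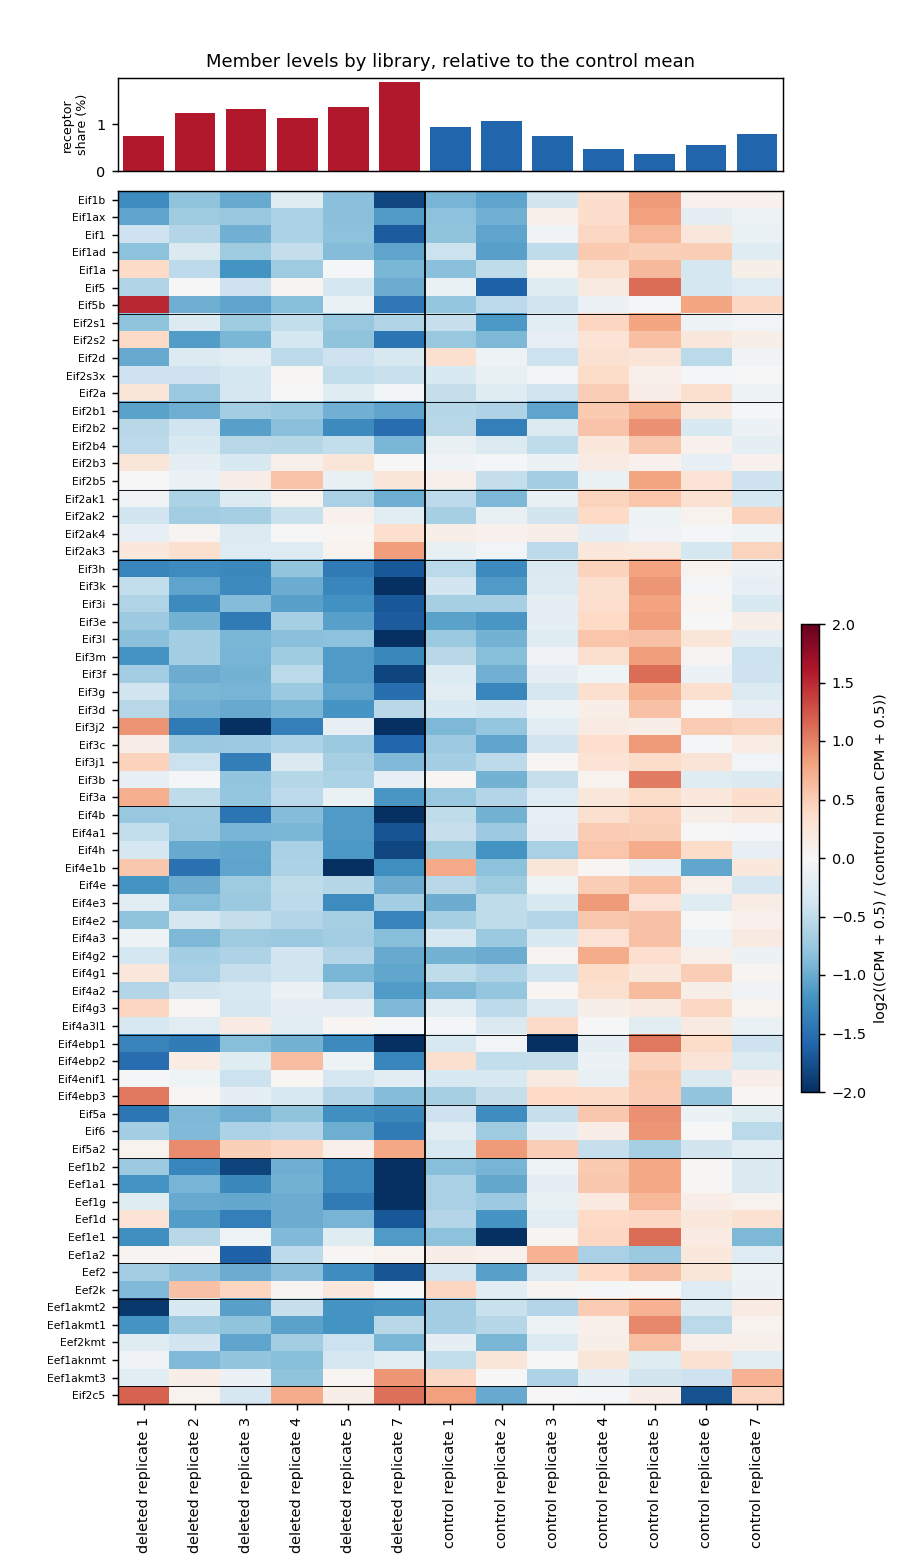
Colours give the log2 level of each factor gene (rows, by role) in each library (columns) relative to the control mean, and the bars above give each library's receptor share in percent. The deleted libraries, at 0.761 to 1.89%, are mostly below the control mean, and control replicates 1 and 2 are also low for many genes.

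The eIF3 complex, the largest role group, held the most called genes. Most of them averaged 100 to 200 CPM, where 29.4% of all genes were lower. The complex is the large scaffold that binds the small subunit and bridges it to the cap complex. Of its 14 measured genes, 9 fell (Eif3d, Eif3e, Eif3f, Eif3g, Eif3h, Eif3i, Eif3k, Eif3l and Eif3m) and 5 were not called (Eif3a, Eif3b, Eif3c, Eif3j1 and Eif3j2). The median log2 fold change was -0.93, and all 14 values were negative, though Eif3a (0.10) and Eif3b (0.09) turned positive when libraries were scaled by expressed genes, and 6 of the 14 (Eif3a, Eif3b, Eif3c, Eif3g, Eif3j1 and Eif3j2) were positive with receptor share as a covariate.

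Eif3h (chr15:51786563-51865461), a subunit of the peripheral part of the complex, was at 93.9 CPM in the lowest, 125 at the median and 177 in the highest deleted library. In control libraries it was at 126, 282 and 533 CPM. The groups overlapped only through the lowest control library, and 4 of 6 deleted libraries lay below it. The log2 fold change was -1.27 (SE 0.28, edgeR quasi-likelihood adjusted p = 0.00784). Eif3i (chr4:129591974-129600648), a WD-repeat subunit, spanned 59.9 to 129 CPM (median 88.5) in deleted and 123 to 344 CPM (median 172) in control libraries. All but 1 deleted library were below the lowest control, and the log2 fold change was -1.09 (SE 0.26, edgeR adjusted p = 0.0112). Eif3d (chr15:77958998-77970824), a subunit that can itself bind the cap of some messages, was at 74.8, 88.8 and 115 CPM (lowest, median, highest) in deleted libraries. The control values were 130, 159 and 256 CPM. The 6 deleted libraries were all below the 7 control libraries, and the log2 fold change was -0.85 (SE 0.21, edgeR adjusted p = 0.0155).

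The core subunits Eif3a, Eif3b and Eif3c were not called. Without deleted replicate 1 their log2 fold changes were lower, at -0.59, -0.41 and -0.85. None was called there either (edgeR adjusted p = 0.156, 0.348 and 0.0578). Eif3a, the main scaffold subunit, was at 162, 255 and 603 CPM in deleted and 216, 422 and 473 CPM in control libraries, again lowest, median and highest. The highest value of all 13 was in deleted replicate 1, and the log2 fold change was -0.27 (SE 0.30, edgeR adjusted p = 0.605). Eif3b, which binds Eif3i and Eif3g in the complex, had a mean of 112 ± 24.2 CPM in the deleted and 144 ± 70.1 CPM in the control group (log2 fold change -0.36, SE 0.26, edgeR adjusted p = 0.401). As a description, the log2 ratio of Eif3h to Eif3a counts within a library had medians of -0.89 in deleted and -0.28 in control libraries. It ranged from -2.27 to -0.52 and from -0.95 to 0.17, so the groups overlapped. For Eif3i over Eif3b the medians were -0.10 and 0.71, over ranges of -1.11 to 0.37 and -0.25 to 0.74. These 2 ratios were chosen after the values were seen and were not tested. Eif3j1 and Eif3j2 are near-identical copies whose reads the counting could split, so their separate values are uncertain. Without deleted replicate 1, Eif3j2 was called (log2 fold change -1.33, edgeR adjusted p = 0.0148) and Eif3j1 was not (-0.70, edgeR adjusted p = 0.0576).

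Genes for both steps of elongation, tRNA delivery and translocation, fell. Of the 6 genes grouped with eEF1, Eef1a1, Eef1b2 and Eef1g fell, and Eef1d, Eef1e1 and Eef1a2 were not called, with a median log2 fold change of -0.94. Of all genes, 43.1% were lower at 200 mean CPM or more (the level of Eef1a1 and Eef1b2). At 100 to 200 mean CPM (the level of Eef1g) it was 29.4%. Eef1b2 (chr1:63176831-63180486), the nucleotide exchange factor that recharges eEF1A, was at 66.5, 155 and 228 CPM in the lowest, median and highest deleted libraries and at 198, 354 and 644 CPM in controls. Only the highest deleted library, replicate 1, reached into the control range. The log2 fold change was -1.33 (SE 0.32, edgeR adjusted p = 0.0112). Eef1a1 (chr9:78478453-78481724), which delivers aminoacyl-tRNA, was at 838, 1450 and 1770 CPM in deleted and 1660, 2930 and 5780 CPM in control libraries. Overlap was limited to the lowest control, replicate 2, and the log2 fold change was -1.23 (SE 0.38, edgeR adjusted p = 0.0393). Eef1a1 has many processed pseudogenes, and reads shared with them could be counted elsewhere. Eef1g, the structural partner of Eef1b2, had a log2 fold change of -1.05 (SE 0.29, edgeR adjusted p = 0.0219), and 5 of 6 deleted libraries lay below the lowest control. Its levels were 30.8, 84 and 144 CPM (deleted) and 103, 178 and 269 CPM (control).

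Eef2 (chr10:81176631-81182509), the translocase, was at 446, 777 and 907 CPM in deleted and 692, 1370 and 2210 CPM in control libraries. Its fold change was -1.01 on the log2 scale (SE 0.32, edgeR adjusted p = 0.0459), with 2 of 6 deleted libraries below the lowest control. Eef2k, the kinase that phosphorylates and inhibits eEF2, averaged 50.7 ± 15.4 CPM (SD) in the 6 deleted and 46.0 ± 7.96 CPM in the 7 control libraries and was not called (log2 fold change 0.14, edgeR adjusted p = 0.718). Eef1a1 and Eef2 together held 25.0 to 32.8% of the counts on the 69 genes in deleted libraries and 32.6 to 38.7% in control libraries. Among the 5 methyltransferases that modify elongation factors, Eef1akmt1 (-0.91, SE 0.25, edgeR adjusted p = 0.0206) and Eef1akmt2 (-0.95, SE 0.29, edgeR adjusted p = 0.0358) fell on the log2 scale. Of all genes, 19.3% were lower at 50 to 100 mean CPM (the level of Eef1akmt1) and 4.29% below 50 (the level of Eef1akmt2). Eef1akmt1 was at 33, 39.7 and 51.7 CPM (deleted) and 47.4, 71.1 and 149 CPM (control), with 5 of 6 deleted libraries below the lowest control. Eef1akmt2 averaged 16.9 ± 6.68 CPM in deleted libraries, below the 95th percentile of the 1482 receptor genes there (21.5 CPM).

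**Figure D4:**
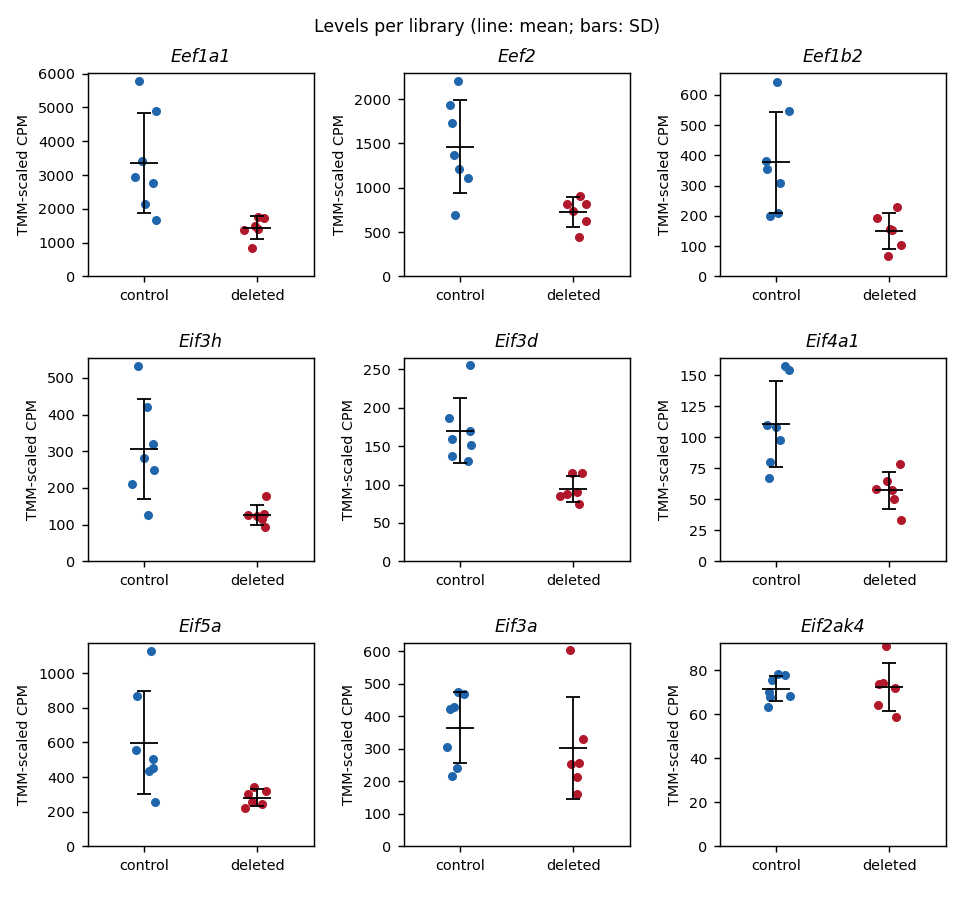
TMM-scaled CPM (vertical axes, from 0) of 9 factor genes in each control (blue) and deleted (red) library, with the mean as a line and the SD as bars. Eif3d separates the groups, at up to 115 CPM against at least 130, the other called genes overlap at the low control libraries, and Eif3a and Eif2ak4 were not called.

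The eIF4 factors recruit the small subunit to capped mRNA, and 4 of the 13 genes grouped with them fell (Eif4b, Eif4a1, Eif4e and Eif4h). Among all genes of at least 50 mean CPM, 23.8% were lower. The median log2 fold change of the 13 was -0.67. Eif4a1 (chr11:69666936-69672423), the helicase that unwinds leaders, was at 33.1, 58.2 and 78.6 CPM in deleted and 67.1, 108 and 158 CPM in control libraries. In 5 of 6 deleted libraries it lay below the lowest control, and its log2 fold change was -0.95 (SE 0.23, edgeR adjusted p = 0.0133). Eif4b (chr15:102073773-102097173), a helper of that helicase, was at 44.0, 92.2 and 110 CPM against 95, 200 and 254 CPM, and 3 deleted libraries were below every control. Its log2 fold change was -1.10 (SE 0.26, edgeR adjusted p = 0.0105). Eif4e, which binds the cap, was at 57.4 ± 10.8 CPM against 100 ± 35.3 CPM (log2 fold change -0.81, SE 0.23, edgeR adjusted p = 0.0264). The scaffolds were not called, with log2 fold changes of -0.48 for Eif4g1, -0.59 for Eif4g2 and -0.14 for Eif4g3.

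Of the 4 genes for repressors that bind eIF4E, Eif4ebp1 fell, at a level (below 50 mean CPM) where 4.29% of all genes were lower. Its mean level was 7.06 ± 2.09 CPM in the deleted group and 17.7 ± 10.5 CPM in controls. The log2 fold change was -1.32 (SE 0.38, edgeR adjusted p = 0.027). The deleted values ran from 3.71 to 9.60 CPM and the control values from 3.64 to 37.5 CPM, so 0 deleted libraries were below the lowest control. In deleted libraries its mean was below the 95th percentile of the receptor genes, as for 10 of the 69 factor genes in one group or the other. Eif4ebp2, Eif4ebp3 and Eif4enif1 were not called.

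Within a library, the ratio of related genes does not depend on scaling, and 8 such pairs were compared. The log2 ratio of Eif4a1 to Eif4a2, its close paralog, was -1.39 ± 0.31 in deleted and -0.88 ± 0.23 in control libraries. The difference of -0.52 had a two-sided exact permutation p = 0.00932, adjusted p = 0.0746 over the 8 pairs, with 5 of 6 deleted libraries below the control mean. Without deleted replicate 1 the difference was -0.63 (exact permutation test, adjusted p = 0.0202), and over all alternatives the adjusted p of this exact permutation test ranged from 0.0202 to 0.162. The ratio of Eif4ebp1 to Eif4ebp2 differed by -0.75 (exact permutation p = 0.10, adjusted p = 0.267), and that of Eef1a1 to Eef2 by -0.19 (exact permutation p = 0.0921, adjusted p = 0.267). The other 5 pairs (Eif4g1 with Eif4g2, Eif1 with Eif1b, Eif1a with Eif1ax, Eif4e with Eif4e2, Eif5 with Eif5b) differed by -0.13 to 0.32, none past the threshold. In all 8 pairs the groups overlapped.

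**Figure D5:**
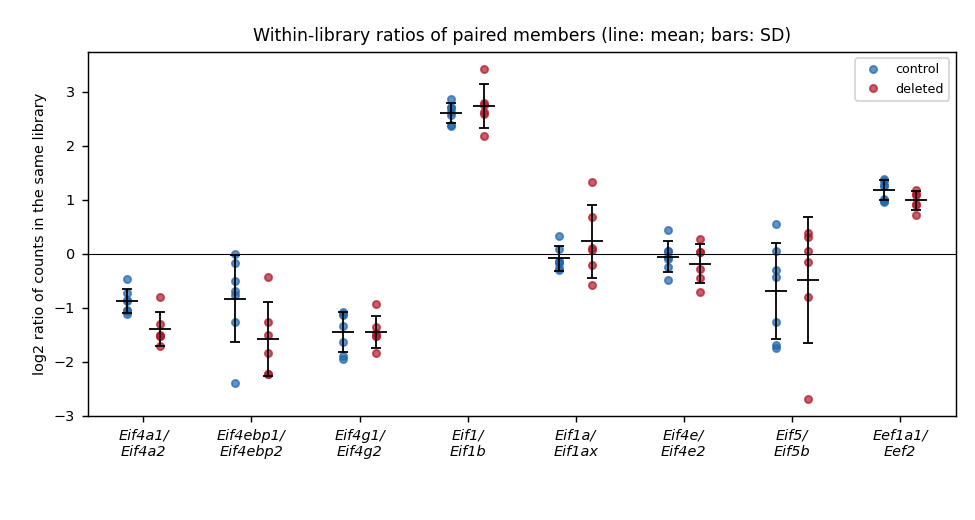
Log2 ratio of counts of 2 related genes in the same library (vertical axis) for 8 pairs, control in blue and deleted in red, with the mean as a line and the SD as bars. The groups overlap in every pair, and Eif4a1 over Eif4a2 shows means of -1.39 and -0.88.

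The factors that act at the start codon were lower in part. Of 7 scanning and start codon genes, Eif1ax (-0.85, SE 0.25, edgeR adjusted p = 0.0294) and Eif1b (-0.93, SE 0.29, edgeR adjusted p = 0.0405) fell on the log2 scale. Of all genes, 4.29% were lower below 50 mean CPM (the level of Eif1b) and 19.3% at 50 to 100 (Eif1ax, Eif1ad and Eif1a). At 100 to 200 (Eif5) it was 29.4%, and at 200 or more (Eif1 and Eif5b) 43.1%. With 1 library left out, Eif1ax was called in 7 and Eif1b in 4 of 13 fits. Eif1ax, an eIF1A gene that opens the subunit for scanning, was at 33.1, 41.8 and 46.9 CPM (deleted) and 37.4, 68.3 and 129 CPM (control). Eif1b, a paralog of Eif1, was at 16, 30.4 and 49.1 CPM (deleted) and 27.6, 61.3 and 105 CPM (control). In each, 2 of 6 deleted libraries lay below the lowest control and all 6 below the control median. Eif1, the gatekeeper of start codon choice, was at 109 to 258 CPM in deleted and 165 to 549 CPM in control libraries, without passing the threshold (log2 fold change -0.80, SE 0.29, edgeR adjusted p = 0.0766). Reads of Eif1 and Eif1b, which are close in sequence, could be split between them. Eif5b, which joins the subunits, was at 812 CPM in deleted replicate 1 and 106 to 261 CPM in the other 5 deleted libraries. Controls lay at 167 to 494 CPM, and Eif5b was not called (log2 fold change -0.08, SE 0.39, edgeR adjusted p = 0.919).

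In the eIF2 branch, which carries the initiator tRNA and its regulation, 2 of 14 genes fell, both in eIF2B. The 14 genes averaged 33.7 (Eif2ak3) to 96.4 CPM (Eif2s1). Of all genes, 4.29% were lower below 50 mean CPM and 19.3% at 50 to 100, so the count is near the background. All 5 genes for eIF2 subunits and other tRNA carriers missed the threshold, with log2 fold changes of -0.60 (Eif2s1) to -0.16 (Eif2a). Eif2s1, the alpha subunit that the stress kinases phosphorylate, was at 64.9, 72.1 and 94.9 CPM (deleted) and 51.2, 106 and 198 CPM (control), and Eif2d, a tRNA carrier of reinitiation, at 32.1, 50.1 and 55.2 CPM (deleted) and 44.2, 61.5 and 81.4 CPM (control). For Eif2s1 the lowest of all 13 values was in a control library. The 4 kinases that phosphorylate eIF2 under stress also missed it. Eif2ak2 (PKR) was at 40.3, 49.2 and 69.6 CPM (deleted) and 41.3, 61.5 and 90.8 CPM (control), and Eif2ak1 (HRI) at 26.8, 39.1 and 55.8 CPM (deleted) and 28.3, 48.2 and 78.6 CPM (control). Their log2 fold changes were -0.36 and -0.38, and both turned to 0.04 when libraries were scaled by expressed genes. Eif2ak4, the amino acid sensor GCN2, was at 72.3 ± 10.9 CPM against 71.5 ± 5.78 CPM, a log2 difference of 0.01 with a 95% interval of -0.33 to 0.36. Eif2ak3 (PERK) was at 36.3 ± 11.3 CPM against 31.4 ± 7.46 CPM. Of the 5 subunits of eIF2B, which recycles eIF2, Eif2b1 (-0.92, SE 0.25, edgeR adjusted p = 0.0212) and Eif2b2 (-0.90, SE 0.29, edgeR adjusted p = 0.0454) fell on the log2 scale. Eif2b1 was at 27.2, 29.3 and 35.5 CPM (deleted) and 27.7, 56.6 and 95 CPM (control), and Eif2b2 at 28.3, 42.3 and 62.4 CPM (deleted) and 31.9, 68.6 and 156 CPM (control). Both groups overlapped at the low control libraries. Eif2b4 (-0.55, edgeR adjusted p = 0.073), Eif2b3 (0.03) and Eif2b5 (0.13) were not called. No test of the difference between these role groups was made.

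Eif5a and Eif6 fell, and Eif5a2 was not called. Of all genes, 43.1% were lower at 200 mean CPM or more (the level of Eif5a) and 19.3% at 50 to 100 (the level of Eif6). Eif5a (chr11:69916712-69921958), which helps ribosomes through stalling sequences and carries hypusine, was at 219, 280 and 342 CPM in deleted and 253, 504 and 1130 CPM in control libraries. The log2 fold change was -1.09 (SE 0.31, edgeR adjusted p = 0.0254). Eif6, which keeps the large subunit apart, was at 44.8, 70 and 79.8 CPM (deleted) and 72.8, 105 and 223 CPM (control) (log2 fold change -0.84, SE 0.24, edgeR adjusted p = 0.0289). Eif5a2, the paralog, was at 22.3 ± 5.68 CPM against 15.6 ± 7.02 CPM (log2 fold change 0.52, edgeR adjusted p = 0.237), the groups overlapping widely.

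Of the 9 factor genes known as 5′TOP messages, 8 fell, with a median log2 fold change of -1.05 (Eef1d was not called). Of the 5 with a mean of 100 to 200 CPM, 4 fell, against 29.4% of all genes of that level, and of the 4 at 200 CPM or more, 4 fell, against 43.1%. Without deleted replicate 1, Eef1d was called as well (log2 fold change -1.20, edgeR adjusted p = 0.00725). Of the 60 factor genes not known as 5′TOP messages, 18 fell, with a median of -0.58. These 60 include all 22 factor genes below 50 mean CPM, where 4.29% of all genes were lower. The 5′TOP genes and the 60 are thus not matched for level. Among 8 further 5′TOP genes outside the translation factor families, 6 fell, among them Btf3 (-1.18, edgeR adjusted p = 0.00565) and Hnrnpa1 (-1.08, edgeR adjusted p = 0.00798), with a median log2 fold change of -0.99. All 8 average at least 50 CPM, where 23.8% of all genes were lower, and 1 of the 6, Pabpc1, is also among the cap complex partners below. With the receptor share as a covariate, 0 of these 8 were called by edgeR.

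Genes for neighbouring steps of translation were read from the same fit, in which 8.52% of all genes, and 23.8% of those of at least 50 mean CPM, were lower. The 2 genes named in a list are those of smallest p. Of 11 genes for termination, recycling and reinitiation, Mcts1 and Trmt112 fell (log2 fold changes -0.96 and -0.95, edgeR adjusted p = 0.0337 and 0.0417), and the median was -0.36. At 50 CPM or more, 1 of 6 fell. Of 24 genes for cap complex partners and mTORC1 outputs, 4 fell, among them Rps6 (-1.14) and Mknk2 (-0.83), with a median of -0.36. All 4 are among the 16 genes of at least 50 CPM, a share close to that background. Of 22 genes for cytosolic aminoacyl-tRNA synthetases and their partner proteins Aimp1 and Aimp2, 4 fell, among them Aimp1 (-0.74) and Kars (-0.77), with a median of -0.63. At 50 CPM or more it was 4 of 19, also close to the background. Of 9 hypusine and diphthamide enzymes, which modify eIF5A and eEF2, Dph1 fell (-0.69, median of the list -0.50). Of 11 mitochondrial translation factors, Tufm fell (-0.62, median of the list -0.13). Among 14 tested genes of the response to phosphorylated eIF2, 0 were called by edgeR, with a median log2 fold change of -0.29. None of these lists had a gene called higher in the fit over all genes, and once receptor share entered as a covariate edgeR called 0 of their genes. Fitted on the 5204 expressed genes alone, 5 of the 7 lists had 1 gene called higher each. That fit called 9.38% of the 5204 genes higher.

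Promoters of the factor genes were searched for short motifs, as a description. RefSeq (GRCm38.p6) gave a promoter of 250 bases before and 50 after the start for 53 of the 69 genes, 19 of them lower and 34 not called, and for 27025 genes in all. Both strands were searched, and no motif contains another. A gene counted if any of its promoter entries matched. The 27025 genes were not limited to expressed ones, while most factor genes are well expressed, so the shares are not matched for level. The ETS core CCGGAAG was in 17 of 53 factor genes (32.1%) and 9.93% of all genes, with 9 of 19 lower genes and 8 of 34 not called. The E-box CACGTG was in 13 of 53 (24.5%) and 8.09% of all, with 8 of 19 and 5 of 34. The GC box GGGCGG was in 71.7% against 38.2% of all, and in fewer of the lower (12 of 19) than of the other genes (26 of 34) by share. The TATA box TATAAA was in 7.55% against 15.7% of all, with 2 of 19 and 2 of 34. CCAAT was in 34.0% against 41.1% of all, with 7 of 19 and 11 of 34. A start on C followed by at least 4 pyrimidines, as in 5′TOP messages, was annotated for 3 of 53 (5.66%), against 3.01% of all. Among the 19 lower genes 1 had it (Eif3f), and among the 34 others 2.

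The stretches below are read 5′ to 3′ on the gene's strand (GRCm38.p6), with motif matches in capitals, for genes that fell. They are the last 80 bases before the start for Eef2 and Eif3f (E-box and TATA box, with a CCAAT box in Eif3f), Eif3m (ETS core and GC box) and Eef1a1 (GC box), and 30 bases across the start for Eif3f (pyrimidine tract) and Eef1b2 (ETS core). A match describes the letters and no binding was measured.
Eef2 chr10:81176551-81176630 (+): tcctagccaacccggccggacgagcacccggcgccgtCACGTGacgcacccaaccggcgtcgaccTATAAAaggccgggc
Eif3f chr7:108934335-108934414 (+): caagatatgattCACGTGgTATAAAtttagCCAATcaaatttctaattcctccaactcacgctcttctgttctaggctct
Eif3f chr7:108934400-108934429 (+): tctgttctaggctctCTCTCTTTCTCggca
Eef1b2 chr1:63176816-63176845 (+): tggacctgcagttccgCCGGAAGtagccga
Eif3m chr2:105017028-105017107 (−): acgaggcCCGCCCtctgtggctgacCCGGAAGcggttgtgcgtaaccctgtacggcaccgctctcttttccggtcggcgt
Eef1a1 chr9:78481725-78481804 (−): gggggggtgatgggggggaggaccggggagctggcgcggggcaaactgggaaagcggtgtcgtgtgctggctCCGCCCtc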

How the data were processed

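Per the labels, total RNA was taken from sorted splenic Treg cells with a Qiagen kit and amplified with SMART-Seq v4. The deposited counts are raw read counts per gene from featureCounts 2.0.1 on GRCm38 (mm10), per the submitters' processing notes. The sources used here name no aligner, annotation or strand setting, so overlapping and antisense genes cannot be separated. The authors also deposited a mean signal per group (not used here) and, per the file headers, log2 fold changes and p-values over tools that include edgeR 3.28 and DESeq2 1.26.0.

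Here, edgeR 4.0.16 in R 4.3.3 (TMM scaling, filterByExpr, quasi-likelihood F test, genotype only, all 13 libraries, Benjamini-Hochberg over all genes tested, threshold 0.05) gave fold changes, and CPM were scaled by TMM. SEs are the fold change over the root of F. Counts of 1097 rows with no symbol stayed in. Alternatives used DESeq2 1.42.0 and limma 3.58.1, other scalings and filters, each library left out, a replicate block, the receptor share as a covariate and libraries of similar share. Only the main edgeR fit was run on simulated counts, with as many genes raised as lowered and no group difference in receptor share. That setting differs from these data and does not test the other fits. Ratios used raw counts plus 0.5. The rule for genes given by library was the 2 of smallest p in each role group and the paired genes (as values, means ± SD or plots), and other genes were chosen after their values were seen. Triples of CPM are the lowest, median and highest library. Members and lists were chosen with earlier results of these data known.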

Additional observations from a re-analysis of the deposited data

Results flagged for a closer look

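Among 82 sets of values (the control or deleted libraries of 41 named genes), 6 had a single library far from the others, and chance gives about 5% of sets. In control replicate 5, Eif3f was at 513 CPM (next library 222), Eif6 at 223 CPM (next 132) and Eef1akmt1 at 149 CPM (next 81.8). Eef2k was at 62.4 CPM in control replicate 1 (next 47.7). Eif5b was at 812 CPM in deleted replicate 1 (next 261). Eif3l was at 20.3 CPM in deleted replicate 7 (next 81.0). The fits without these libraries are among those that left out 1 library each.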

How the results depend on the processing

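The count of factor genes lower was 26. It was 13 under upper quartile scaling, 9 when scaled by expressed genes, 14 when fitted on expressed genes only, 0 with the receptor share as a covariate and 0 in libraries of similar receptor share, with 0 higher in each. The lower and higher counts over all genes (2050 and 400) were 1208 and 761 under upper quartile scaling, 699 and 882 when scaled by expressed genes, 56 and 54 with the covariate, and 101 and 38 in libraries of similar share. Expressed genes only gave 813 lower and 488 higher, the DESeq2 test 728 higher and limma-voom 1174 higher. Upper quartile scaling moved log2 fold changes by a median of 0.18 over all genes, and scaling by expressed genes by 0.35. The fit on expressed genes only moved those 5204 genes by 0.40. The 26 values stayed negative under the other scalings and filters, apart from 4 genes not in the fit on expressed genes only.

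Leaving out 1 library gave 7 to 35 factor genes lower, 1034 to 3245 genes lower and 167 to 860 higher over all genes. The difference in ratio ranged from -0.63 to -0.45 for Eif4a1 over Eif4a2, from -0.10 to 0.08 for Eif4g1 over Eif4g2, from -0.01 to 0.24 for Eif1 over Eif1b, from 0.03 to 0.65 for Eif5 over Eif5b, from 0.10 to 0.48 for Eif1a over Eif1ax, from -0.22 to -0.03 for Eif4e over Eif4e2, from -1.01 to -0.62 for Eif4ebp1 over Eif4ebp2 and from -0.23 to -0.13 for Eef1a1 over Eef2.

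Log2 fold changes of factor genes turned sign, to 2 decimals, as follows. With 1 library left out, 4 genes turned in some fit, with ranges of Eef1akmt3 -0.16 to 0.24, Eif2ak4 -0.06 to 0.07, Eif2b3 -0.02 to 0.09 and Eif5b -0.83 to 0.10. With the covariate, 30 turned, namely Eef1akmt3 -0.50, Eef1d 0.09, Eef1e1 0.68, Eef2k -0.11, Eif1 0.17, Eif1a 0.30, Eif1ad 0.10, Eif1b 0.06, Eif2a 0.25, Eif2ak1 0.46, Eif2ak4 -0.18, Eif2b2 0.16, Eif2s1 0.11, Eif2s2 0.35, Eif3a 0.47, Eif3b 0.26, Eif3c 0.39, Eif3g 0.03, Eif3j1 0.29, Eif3j2 0.29, Eif4a2 0.27, Eif4ebp2 0.06, Eif4enif1 0.10, Eif4g1 0.20, Eif4g2 0.23, Eif4g3 0.38, Eif4h 0.22, Eif5 0.61, Eif5a2 -0.07 and Eif5b 0.72. With scaling by expressed genes, 13 turned, namely Eef1a2 0.07, Eif2a 0.23, Eif2ak1 0.04, Eif2ak2 0.04, Eif2s3x 0.04, Eif3a 0.10, Eif3b 0.09, Eif4a3l1 0.28, Eif4ebp2 0.16, Eif4enif1 0.21, Eif4g3 0.22, Eif5 0.12 and Eif5b 0.22. On expressed genes only, 9 turned, namely Eif2a 0.23, Eif2ak2 0.04, Eif2s3x 0.04, Eif3a 0.10, Eif3b 0.09, Eif4enif1 0.21, Eif4g3 0.22, Eif5 0.12 and Eif5b 0.22. In libraries of similar share, 10 turned, namely Eef1akmt3 -0.37, Eef1e1 0.22, Eif2a 0.12, Eif2ak1 0.17, Eif2ak4 -0.13, Eif3a 0.11, Eif4ebp2 0.12, Eif4g3 0.19, Eif5 0.21 and Eif5b 0.33. With upper quartile scaling, 5 turned, namely Eif2a 0.04, Eif4a3l1 0.09, Eif4enif1 0.03, Eif4g3 0.05 and Eif5b 0.09. With limma-voom, Eif2ak4 turned to -0.01. The cause was not tested.

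With the replicate number as a block (12 libraries), 736 genes were lower and 121 higher over all genes, and 1 factor gene was lower (Eef1b2). In that fit the values of the 26 genes all stayed negative, with a median of -0.92. The shared numbers showed no sign of pairing the samples, but only correlations were checked, so pairing is not excluded. The correlation of deviations between same-numbered libraries was -0.209 to 0.113 over 6 pairs, and 0 deleted libraries correlated best with their own number. The 10 factor genes whose mean was within the range of most receptor genes in a group rest on low counts.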
